A study of Mus musculus with 10 samples.

Results

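MYC and its MAX network were followed in cultured splenic natural killer cells (NKC) through 8 genes: Myc, Mycn, Max, Mxd1, Mxd3, Mxd4, Mnt and Mlx. Members were taken as every probe set whose only gene symbol was one of these, which gave 19 of the 45101 probe sets on the array and 8 of the 18194 genes named on it. The brightest probe set of a gene, by its mean over all arrays, stood for the gene. A gene was tested where that probe set was at log2 5 or more on at least 2 arrays, as was true of all 8 members and of 9391 genes in all. Of the 19 probe sets, 14 were tested and 5 stayed under log2 5 on every array.

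RNA came from NKC of ICR mice aged 6 weeks, either wild-type (WT, Runx3 +/+) or lacking the transcription factor Runx3 in every cell of the animal (KO, Runx3 -/-). The enriched NKC of each mouse were cultured over 7 days in recombinant human IL-2 (at 1000 u/ml) or in IL-15 of the mouse, cytokines that signal through shared receptor chains and drive NKC growth. The 4 groups held 3 arrays each of WT and KO cells grown in IL-2, and 2 arrays each of WT and KO cells grown in IL-15. No uncultured or cytokine-free cells were analysed here. Values are log2 signals per probe set, so a difference of 1 is a doubling, and signals of different probe sets are not comparable with each other as amounts of RNA. With so few arrays, precision is limited throughout.

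MYC and MYCN are transcription factors that bind DNA only as heterodimers with MAX, mostly at the E-box CACGTG, and raise transcription of genes for growth and division. MXD1, MXD3, MXD4 and MNT also pair with MAX, bind the same sites and repress through SIN3 corepressors, so that the outcome depends on which partner MAX carries. MLX is a MAX-like partner for MXD1, MXD4, MNT and the nutrient-sensing MONDO proteins. In lymphocytes MYC is induced by activating cytokines and antigen, whereas MXD proteins are known from differentiating or resting cells.

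Some properties of the arrays bear on every value. The WT and the KO array of the same number add up to the same total within a cytokine for every probe set, to within 0.00014 in IL-2 and 0.00013 in IL-15, so differences between numbered pairs had been removed before deposit. Within a pair the WT and KO values therefore mirror each other around the mean of the cytokine, and WT and KO have the same SD. The evidence for a KO effect in IL-2 is 3 pairs, and for IL-15 it is 2 pairs. KO and WT arrays of a cytokine do not overlap whenever all its pairs differ in the same direction. A lack of overlap between KO and WT is thus the same fact as pairs that share a direction. Xist lay at 14.28 to 14.66 on the IL-15 arrays and 4.64 to 5.37 on the IL-2 arrays, and the Y-linked gene Eif2s3y at 2.34 to 2.43 and 7.31 to 9.17, so the sex of the mice and the cytokine cannot be told apart. Runx3 itself, the check of the labels, had a mean of 11.65 for WT and 11.07 for KO in IL-2 (adjusted p = 0.254) and at 12.48 and 11.38 in IL-15 (adjusted p = 0.293), and where its probe set lies relative to the deletion is not given in the sources used here. Of 9 NK cell markers with a named probe set, 8 reached log2 5 in every group, while the 4 B cell and 4 granulocyte markers stayed under log2 5 on every array. Of the 8 tested NK cell markers, 2 were called higher and 1 lower in KO in IL-2, beside 10.5% and 9.17% of all tested genes. None was called in KO versus WT in IL-15. In IL-2, means in WT and KO were 9.58 and 11.69 for Ncr1, 11.12 and 12.54 for Tbx21, and 14.85 and 13.12 for Prf1. Summed macrophage markers lay at log2 7.07 to 10.46 over the IL-2 arrays and 5.70 to 8.36 over the IL-15 arrays. Single macrophage markers did not share a direction in IL-2. Cd14 had means of 7.68 in WT and 3.79 in KO (adjusted p = 0.0494), and Csf1r 7.75 and 6.19. Lyz2 went the other way, at 5.07 in WT and 7.97 in KO, and was not called. Adgre1 (4.81 and 4.95) and Itgam (2.09 and 2.11) hardly differed. Only 1 of 5 mast cell and basophil markers reached log2 5, Cpa3, with means of 7.24 in WT and 4.21 in KO in IL-15 (adjusted p = 0.0483) and 5.62 in WT in IL-2. Of 7 T cell markers 3 reached log2 5, and none was called in any comparison (Cd3g had means of 10.26 in WT and 8.13 in KO in IL-15), while Cd4 and Cd8a stayed under it, and the platelet marker Pf4 had means of 3.01 and 5.75 there (adjusted p = 0.442). The part of these markers in the results was not tested. In bulk RNA, fewer cells of a type and less RNA per cell cannot be told apart.

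The promoters of Mycn, Mxd1 and Mxd3 are shown because these 3 members passed the test between KO and WT NKC in one of the cytokines. Each window runs from 250 bases before to 50 bases after a start site given for the gene (GRCm38.p6). It is read 5′ to 3′ on the strand of the gene, and all 3 genes lie on the minus strand. The RefSeq gene begins at 12941836 for Mycn, 86669234 for Mxd1 and 55329900 for Mxd3. The site used is that base for Mycn, but lies inside the RefSeq gene for Mxd1 and Mxd3. Their windows therefore reach more than 50 bases into the gene. The windows are chr12:12941787-12942086 for Mycn, chr6:86669110-86669409 for Mxd1 and chr13:55329682-55329981 for Mxd3. Capitals mark matches, on either strand, to the E-box CACGTG, to the RUNX motif (written TGTGGT in its first form, with TGTGGC as the next, then the form TGCGGT and lastly the form TGCGGC), or to the E2F motif (TTTCGCGC in one form, with TTTGGCGC as the other).
Mycn: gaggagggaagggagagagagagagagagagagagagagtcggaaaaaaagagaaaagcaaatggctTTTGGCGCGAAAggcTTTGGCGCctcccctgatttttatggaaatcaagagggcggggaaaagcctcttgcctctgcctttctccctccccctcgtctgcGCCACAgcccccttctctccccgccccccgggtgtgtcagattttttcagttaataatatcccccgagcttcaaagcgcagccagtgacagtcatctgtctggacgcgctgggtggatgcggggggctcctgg
Mxd1: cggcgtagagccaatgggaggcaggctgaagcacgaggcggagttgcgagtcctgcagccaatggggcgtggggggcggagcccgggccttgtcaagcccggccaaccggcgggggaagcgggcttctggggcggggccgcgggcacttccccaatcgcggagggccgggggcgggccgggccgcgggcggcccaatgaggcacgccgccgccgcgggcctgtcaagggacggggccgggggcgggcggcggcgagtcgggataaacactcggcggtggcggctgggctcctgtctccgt
Mxd3: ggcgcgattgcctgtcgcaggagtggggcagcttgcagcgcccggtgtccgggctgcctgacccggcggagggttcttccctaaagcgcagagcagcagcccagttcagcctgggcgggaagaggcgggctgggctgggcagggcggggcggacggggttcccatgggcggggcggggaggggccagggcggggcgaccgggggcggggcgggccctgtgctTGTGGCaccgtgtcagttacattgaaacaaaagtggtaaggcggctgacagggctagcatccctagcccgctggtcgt

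The Mycn window held 3 E2F matches, of which 2 overlap, and 1 RUNX match, the Mxd3 window held 1 RUNX match, and the Mxd1 window held no match to any of the 3 motifs. An E2F match was present in 0.813% of all 32851 promoter windows of this length and a RUNX match in 45.2%. Among the 7 members with a window, the E-box was found in those of Max, Mxd4, Mnt and Mlx, against 7.15% of all windows. The RUNX motif was found in those of Mycn, Mxd3, Max and Mnt, and the E2F motif only in that of Mycn. Max and Mnt were not called between KO and WT in either cytokine. A match is only a run of letters, and binding was not measured in these arrays.

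Loss of Runx3 in IL-2 went with higher RNA of the MAX-binding repressors Mxd1 and Mxd3, at 4.62-fold and 3.71-fold, while Mycn hardly differed. A gene was called where the adjusted p of limma (Benjamini-Hochberg, over all 9391 tested genes) was under 0.05 and the change was at least 1.5-fold. By this rule 2 of the 8 members were called higher in KO NKC in IL-2 and 0 lower, beside 19.7% of all tested genes called in either direction, 10.5% higher and 9.17% lower. Groups did not overlap for 5 of the 8 members, beside 54.4% of all tested genes, so neither share stands far from the background.

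**Figure D1:**
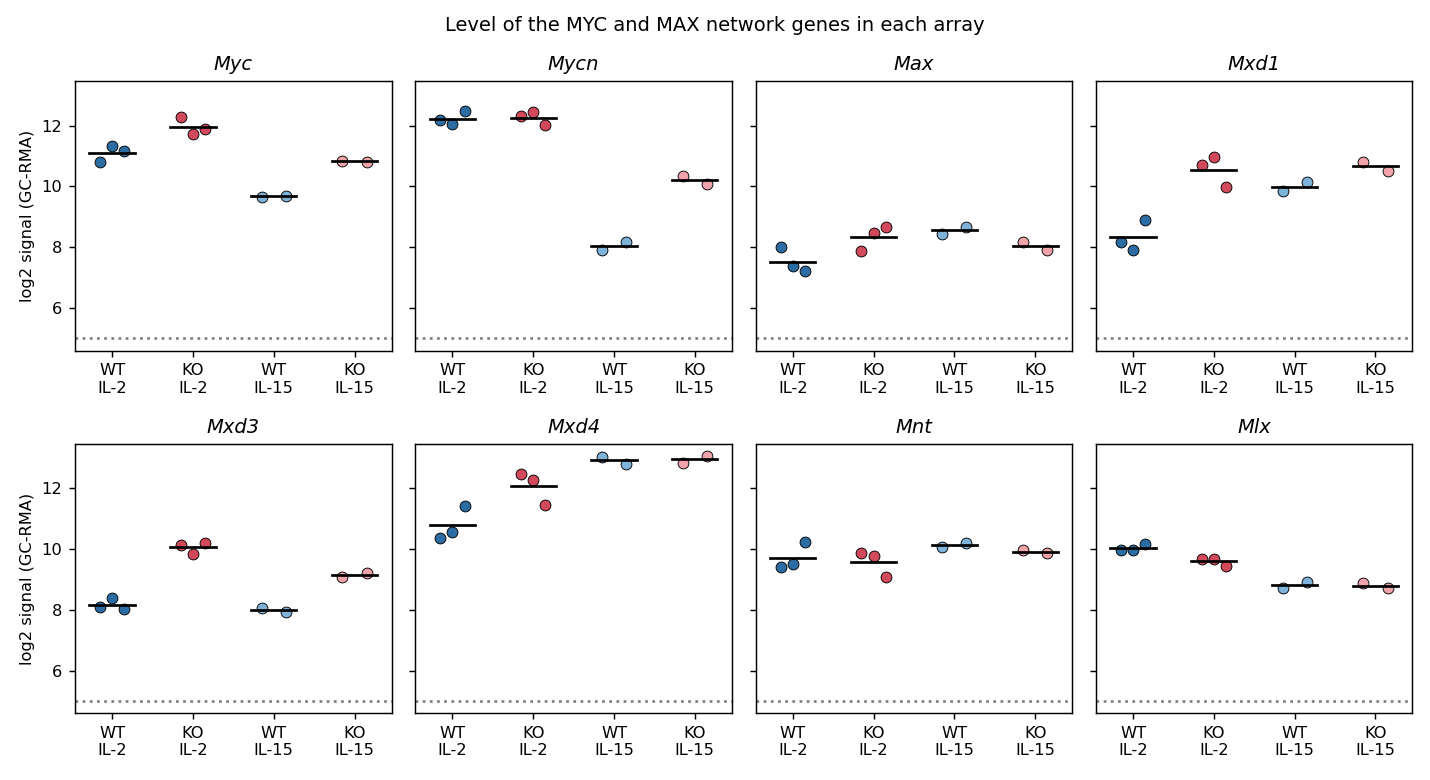
Log2 signal (y axis) of the brightest probe set of each member in each array (points) of the 4 groups (x axis), where bars are group means and the dotted line is log2 5, the minimum for testing. Myc, Mxd1 and Mxd3 are without overlap of KO and WT in both cytokines, but none of them is called in IL-15. Mycn is at 12.01 to 12.47 on all IL-2 arrays and at 7.91 to 10.34 on the IL-15 arrays.

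Mxd3, a repressor known from cells in S phase, was at 8.08, 8.40 and 8.03 in WT NKC in IL-2 and at 10.15, 9.83 and 10.20 in their KO counterparts. All 3 pairs were higher in KO, so with mirrored values the groups did not overlap. The difference was 1.89 ± 0.40 on the log2 scale (SD, 3 pairs, adjusted p = 0.00593), and the call held under all 19 alternative settings. The other 2 tested probe sets of Mxd3 gave 2.16 and 2.33, both called over the 15758 tested probe sets.

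Mxd1, the first described MYC antagonist of the family, was at 8.17, 7.92 and 8.91 in WT and at 10.71, 10.95 and 9.97 in KO NKC in IL-2. Every KO array was above every WT array, with pair 3 showing the smallest gap. The difference was 2.21 ± 1.03 (SD, 3 pairs, adjusted p = 0.0134). The call was lost without an array of pair 1 (2.04, adjusted p = 0.0890), without an array of pair 2 (1.80, adjusted p = 0.0597) and without the filter on low values (adjusted p = 0.0738). A second probe set of Mxd1 differed by 1.68 and was not called (adjusted p = 0.0763), and the mean of its probe sets gave 1.29 (adjusted p = 0.0444).

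Mxd4, another repressor of the family, was at 10.37, 10.58 and 11.41 in WT and at 12.49, 12.28 and 11.45 in KO NKC in IL-2. Pairs 1 and 2 differed clearly and pair 3 by only 0.03, and the groups touched without overlapping. The mean difference of 1.29 ± 1.10 (SD, 3 pairs) did not pass the test (adjusted p = 0.0749), but it did without an array of pair 3 (1.91, adjusted p = 0.0203). The other tested probe sets gave 1.29 and 0.39 and were not called.

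Myc, the founding activator, was at 10.79, 11.35 and 11.18 in WT and at 12.28, 11.73 and 11.89 in KO NKC in IL-2. KO arrays were above all WT arrays, yet the difference of 0.86 ± 0.57 (SD, 3 pairs) was not called (adjusted p = 0.0802). Mycn, its paralog, was at 12.17, 12.04 and 12.47 in WT and at 12.30, 12.44 and 12.01 in KO. The arrays of Mycn overlapped, and the difference was 0.02 ± 0.44 (adjusted p = 0.964, 95% interval -0.64 to 0.68).

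The shared partner Max differed by 0.81 ± 0.83 in IL-2 (SD, 3 pairs, adjusted p = 0.150), with pair 1 opposite to the others. Mnt, the most widely expressed repressor, differed by -0.14 ± 0.88 (adjusted p = 0.812). Mlx was lower in KO in all 3 pairs, by 0.28 to 0.72, and was not called (-0.43, adjusted p = 0.260).

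In IL-15 the member with the largest difference was Mycn, which was 4.48-fold higher in KO than in WT NKC. It was the only one of the 8 members called, in a comparison in which 1.3% of all tested genes were called, 0.458% higher and 0.841% lower. The arrays of 6 of the 8 members did not overlap, beside 64.6% of all tested genes, which with 2 arrays a group says little.

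Mycn was at 7.91 and 8.18 in WT and at 10.34 and 10.07 in KO NKC in IL-15. The difference was 2.16 ± 0.38 (SD, 2 pairs, adjusted p = 0.0432). The call was lost under 11 of 19 alternative settings, which repeat fits because leaving out either array of a pair gives the same one. Lost settings included omission of an array of IL-15 pair 1 or 2, which left 1 pair (difference 1.89 or 2.43). Others were omission of an array of IL-2 pair 1 or 2 (adjusted p = 0.116 or 0.0544), no filter on low values (0.162) and Xist as a covariate (0.0831). The call was also lost when adjusted over probe sets (0.0532). So it was when the 3 probe sets of Mycn, 2 of them under log2 5 on every array, were averaged (0.80, adjusted p = 0.232).

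Myc was at 9.66 and 9.70 in WT and at 10.85 and 10.80 in KO NKC in IL-15. The pairs were close to each other and the groups apart, but the difference of 1.14 ± 0.06 (SD, 2 pairs) was not called (adjusted p = 0.206). Mxd3 was at 8.07 and 7.93 in WT and at 9.08 and 9.22 in KO, a difference of 1.15 ± 0.20 (adjusted p = 0.169). Mxd1 differed by 0.67 (adjusted p = 0.648), Mxd4 by 0.04 (adjusted p = 0.994), Max by -0.52 (adjusted p = 0.704), Mnt by -0.22 (adjusted p = 0.908) and Mlx by -0.02 (adjusted p = 0.994). Other tested probe sets gave 0.74 and 0.62 for Mxd3, 1.14 for Mxd1, -0.33 and -0.47 for Mxd4 and -0.56 for Mlx. None of these was called.

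**Figure D2:**
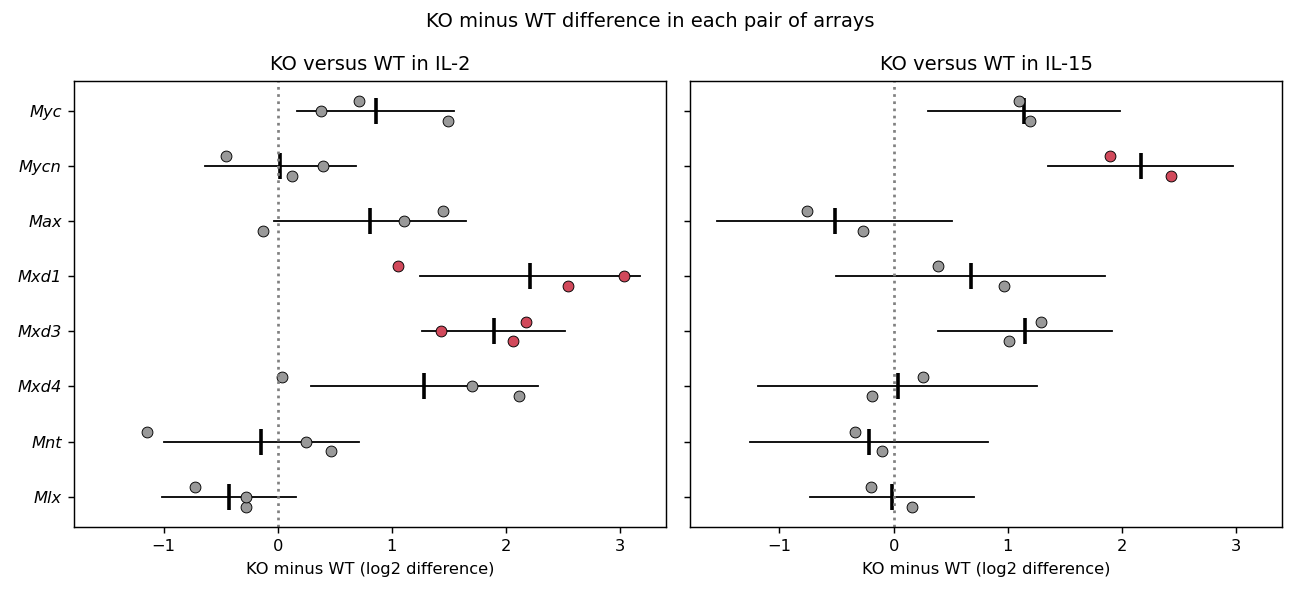
Difference of KO from WT in log2 units (x axis) for the members (y axis), 1 point per array pair, together with its mean (tick) and the 95% interval of the limma fit (line) in IL-2 and IL-15, where red points mark called members. Mxd1 and Mxd3 are called in IL-2 and Mycn in IL-15, where its pairs differ by 2.43 and 1.89.

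Whether the KO effect itself differed between the cytokines was tested as an interaction. None of the 8 members and 0 of the 9391 tested genes passed limma's adjusted threshold (0%), with 1106 genes at an unadjusted p under 0.05. For Mycn the KO effect was 2.14 larger in IL-15 than in IL-2 (adjusted p = 0.231, 95% interval 1.10 to 3.18). For Mxd1 it was -1.53 (adjusted p = 0.420) and for Mxd3 -0.74 (adjusted p = 0.521), so a call in one cytokine alone does not show a difference between them.

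NKC in IL-15 had less Mycn and less Myc RNA than NKC in IL-2, in both genotypes. These comparisons use the same arrays as those of KO with WT, and their p-values are lower limits because the spread between pairs was removed. In WT NKC 2 members were called higher in IL-15 (Mxd1 and Mxd4) and 3 lower (Myc, Mycn and Mlx), beside 25.9% of all tested genes called, 16.1% higher and 9.85% lower. In KO NKC 2 were called lower (Myc and Mycn) and 0 higher, beside 23.3% of all tested genes, 14% higher and 9.37% lower.

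Mycn, by its brightest probe set, had the largest cytokine difference of the 8 members, 18.1-fold lower in IL-15 in WT (-4.18, 95% interval -4.92 to -3.44, adjusted p = 0.00241) and 4.11-fold lower in KO (-2.04, adjusted p = 0.00960). With the mean of its 3 probe sets, 2 of them under log2 5 on every array, the difference was -1.83 in WT and -1.11 in KO, no longer the largest in KO, where Myc was at -1.14. The WT call held under all 17 alternatives, and the KO call was lost without either KO array in IL-15 (adjusted p = 0.0575 or 0.0701). Myc was 2.69-fold lower in WT (-1.43, adjusted p = 0.0230) and 2.21-fold lower in KO (-1.14, adjusted p = 0.0448), the latter lost under 10 of 17 alternatives with adjusted p of up to 0.202. The former was lost without either WT array in IL-15 (adjusted p = 0.126 or 0.122) and without the filter (0.0556).

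Mxd4 was 4.37-fold higher in IL-15 in WT NKC (2.13, adjusted p = 0.0215), with 13.03 and 12.80 in IL-15 above every WT array in IL-2. In KO NKC it differed by 0.88 (adjusted p = 0.210). Of its other tested probe sets, one gave 2.06 in WT and was called (adjusted p = 0.0434) and the other gave 0.47 and was not (adjusted p = 0.236), and the mean of its probe sets gave 1.19 (adjusted p = 0.0372). The Mxd4 call was lost without either WT array in IL-15 (adjusted p = 0.115 or 0.0991), without WT array 1 in IL-2 (0.0611) and without the filter (0.0883).

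Mxd1 was 3.15-fold higher in IL-15 in WT NKC (1.66, adjusted p = 0.0383), a call lost under 10 of 17 alternatives with adjusted p of up to 0.183. Its second probe set was not called (1.06, adjusted p = 0.233), nor was the mean of its probe sets (0.90, adjusted p = 0.124). Mxd1 differed by 0.12 in KO (adjusted p = 0.867). Mlx was at 9.96, 9.96 and 10.18 in WT in IL-2 and at 8.73 and 8.90 in WT in IL-15, with no overlap. It was 2.32-fold lower in WT (-1.21, adjusted p = 0.0232), a call lost without either WT array in IL-15 (0.144 or 0.115) and without WT array 1 in IL-2 (0.0609), and its other tested probe set was not called (-1.17, adjusted p = 0.0636). In KO it differed by -0.81 (adjusted p = 0.0767). Max (1.03 in WT, adjusted p = 0.0966), Mnt (0.42, adjusted p = 0.465) and Mxd3 (-0.17, adjusted p = 0.695) were not called, although the dimmest Mxd3 probe set was called higher in WT (0.98, adjusted p = 0.0477).

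**Figure D3:**
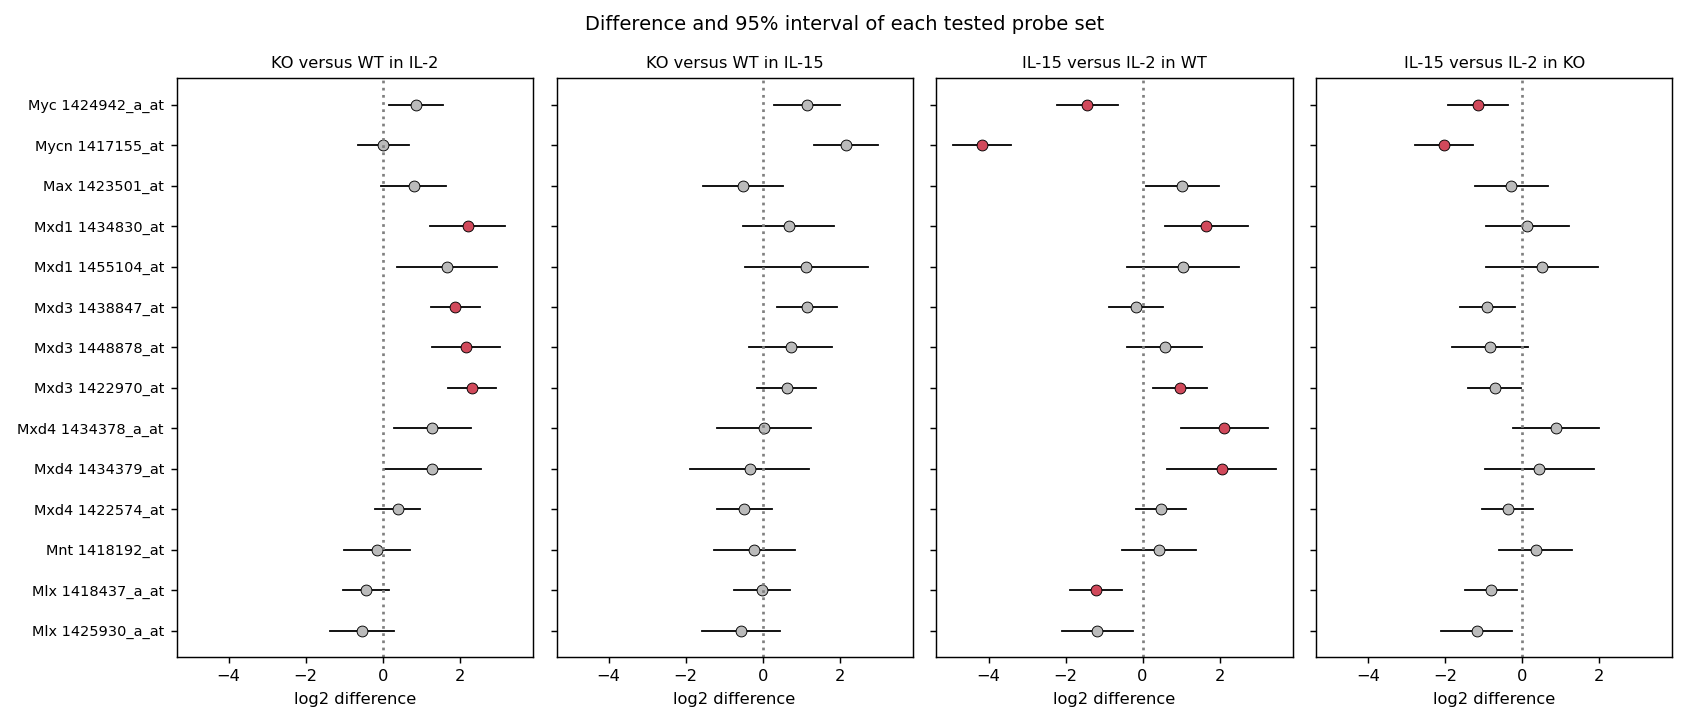
Log2 difference (x axis) and 95% interval of each of the 14 tested probe sets (y axis) in the 4 comparisons, where red points passed an adjusted p under 0.05 over the 15758 tested probe sets and 1.5-fold. All 3 Mxd3 probe sets are called in KO versus WT in IL-2, and Mycn moves furthest between cytokines, at -4.18 in WT.

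Over the 10 arrays Mycn correlated with Myc at r = 0.88 and with Mlx at 0.858, Mxd1 with Mxd4 at 0.849, and Mxd4 with Mlx at -0.832. These values describe 10 arrays that fall into 4 groups and mirror each other within pairs. The genes whose pattern was most like that of Myc were Cdk2ap1 (r = 0.998), Mthfsd (0.993) and Rcc2 (0.991), and for Mycn they were Slc39a11 (0.994), Dhx37 (0.993) and Alg3 (0.992). For Mxd1 they were Tmem185a (0.994), Dnaja4 (0.990) and Psap (0.989), and for Mxd3 Srf (0.996), Adgrl1 (0.989) and Sema4b (0.988).

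The remaining MAX network genes showed no genotype effect that passed the test. Of 7 such genes 5 were tested (Mxi1, Mga, Mlxip, Mycbp and Zbtb17), and 0 were called between KO and WT in either cytokine, while Mycl and Mlxipl were too dim. Mxi1, a further MAX-binding repressor, differed by -0.90 in IL-2 and -1.02 in IL-15 (adjusted p = 0.259 and 0.578). Mga, which also binds MAX, was higher in IL-15 by 1.32 in each of WT and KO (adjusted p = 0.0190 and 0.0194).

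A few genes that act on the MYC protein or with the network passed the test by genotype in IL-2. Their counts are to be read against the 19.7% of all tested genes called there, and with so few genes neither count sets a list apart. Of 12 tested stability genes 2 rose and 1 fell in KO NKC: Aurka, a mitotic kinase that stabilizes MYCN (1.73 ± 0.86, adjusted p = 0.0187), Skp2, a ubiquitin ligase subunit (1.03 ± 0.31, adjusted p = 0.0319), and Fbxw7, which directs MYC to degradation (-1.16 ± 0.58, adjusted p = 0.0371). Of 13 tested cofactors 1 rose, the acetyltransferase Kat2a (0.96 ± 0.37, adjusted p = 0.0481). In IL-15 0 of these 25 genes were called between KO and WT, beside 1.3% of all tested genes.

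Called MYC target genes did not share a direction between KO and WT NKC in IL-2. Of 79 tested targets 6 rose and 8 fell in KO NKC in IL-2, with a median difference of 0.07 beside 0.11 for all tested genes, of which 10.5% were called higher and 9.17% lower. In the cell cycle list 5 of 13 rose and 1 fell, led by the transcription factor E2f2 (3.12 ± 0.77, adjusted p = 0.00313), the replication helicase subunit Mcm7 (1.80 ± 0.64, adjusted p = 0.0120) and E2f1 (1.33 ± 0.22, adjusted p = 0.0137), with the ligase scaffold Cul1 lower (-1.24 ± 0.58, adjusted p = 0.0289).

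In the uptake and energy list 4 of 14 fell and 1 rose in IL-2, beside 9.17% and 10.5% of all tested genes. The 4 lower included the amino acid transporter Slc7a5 (-2.67 ± 0.70, adjusted p = 0.00574) and the kinase Pdk1, which holds pyruvate out of the mitochondrial cycle (-1.96 ± 0.70). The others were hexokinase Hk2 (-1.67 ± 1.002) and the glucose transporter Slc2a1 (-1.39 ± 0.62). The synthesis list had 2 of 17 lower, Mthfd2 of the one-carbon pathway (-1.40 ± 0.16) and Impdh1 of guanine nucleotide synthesis (-1.33 ± 0.46), and the folding list had 1 of 10 lower, the mitochondrial chaperone Hspa9 (-1.45 ± 0.65). None of the 25 tested nucleolar genes was called in either cytokine between KO and WT.

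In IL-15 0 of the 79 targets rose and 1 fell in KO NKC, Slc7a5 (-2.70 ± 0.78, SD, 2 pairs, adjusted p = 0.0483). Of all tested genes 0.458% were called higher there and 0.841% lower. The median difference of the 79 targets in IL-15 was 0.30, beside -0.01 for all tested genes. List medians were 0.70 (synthesis), 0.62 (cell cycle), 0.32 (nucleolar), 0.11 (folding) and -0.36 (uptake and energy). Of 12 genes known to be repressed by MYC, 3 rose and 2 fell in IL-2, beside 10.5% of all tested genes called higher and 9.17% lower. The CDK inhibitor Cdkn2c was higher by 2.32 ± 0.11 in IL-2 (adjusted p = 0.00275) and by 1.87 ± 0.05 in IL-15 (adjusted p = 0.0380). The stress gene Gadd45a was higher (2.06 ± 1.31) and Ndrg1 (-3.45 ± 2.07) and Cdkn2b (-2.05 ± 0.90) lower in IL-2.

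Between cytokines more targets were called lower than higher in IL-15. In WT NKC 37 of 79 fell, 2 rose and 40 were not called, with a median of -1.25 beside 0.18 for all tested genes, of which 9.85% were called lower. In KO NKC 34 fell, 2 rose and 43 were not called, beside 9.37% of all tested genes called lower, with a median of -1.003 beside -0.08. The synthesis list had 12 of 17 lower in WT and 10 in KO, and the nucleolar list 13 and 12 of 25, to be read against the same 9.85% and 9.37%. The count in KO rests on single arrays: without KO array 2 in IL-15 it was 1, and without KO array 1 it was 11, while in WT it was 13 and 19 without WT arrays 1 and 2 in IL-15. The lists were written with earlier results of these data known, so these counts are descriptions.

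**Figure D4:**
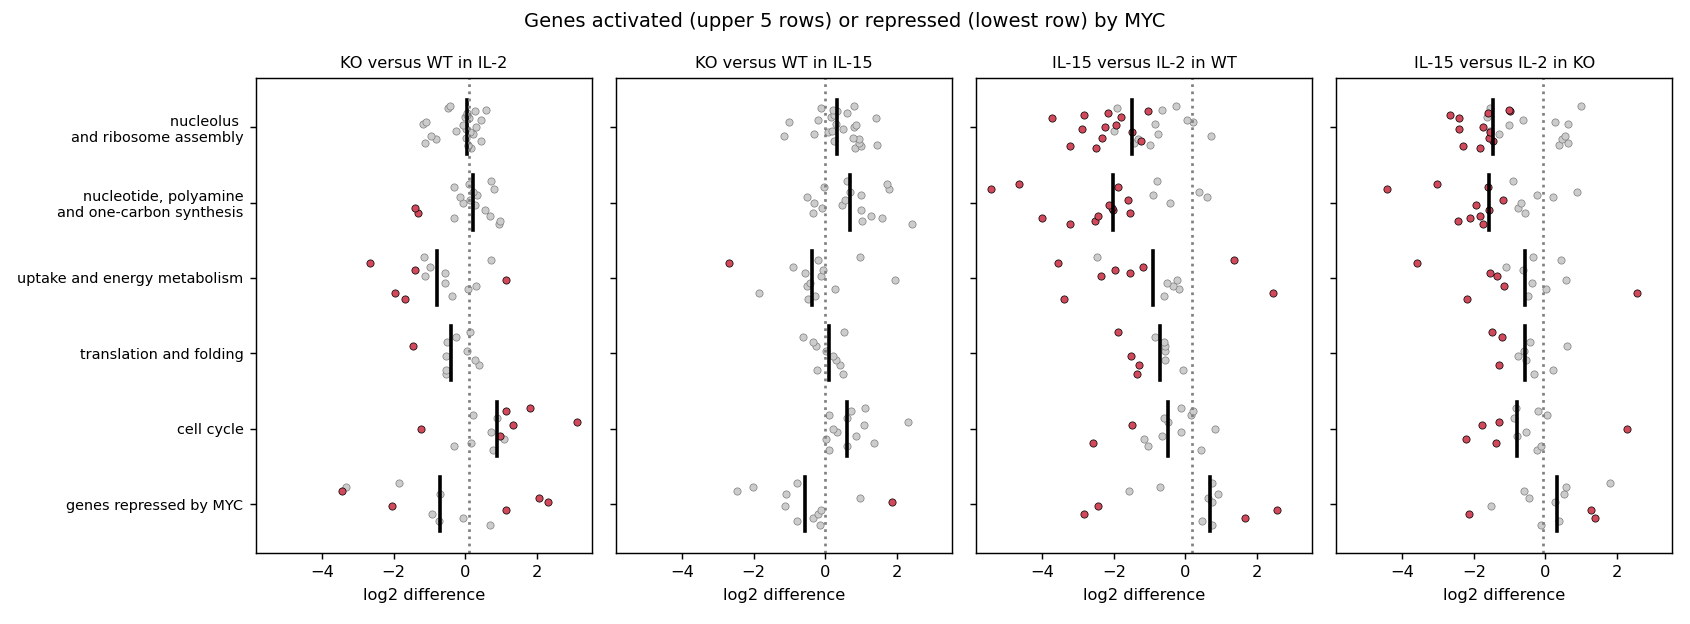
Log2 difference (x axis) of each tested gene (points, red where called) of the 5 MYC target lists and of the genes repressed by MYC (y axis) in the 4 comparisons, with the list median (bar) and the median of all tested genes (dotted line). Medians of the nucleolar list lie at -1.50 in WT and -1.46 in KO between cytokines, and at 0.05 in KO versus WT in IL-2.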

How the data were processed

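RNA of cultured splenic NKC was measured on 10 Affymetrix arrays, 1 mouse each per the labels. The authors had applied GC-RMA in the Partek software (versions not given in the sources used here) and deposited 1 log2 signal for each probe set and array, used here as it stands. Of the probe sets, 34958 had 1 symbol, 932 had several and 9211 were not listed by the platform's annotation. Array medians were 3.20 to 3.37, and 34.6% to 36.7% of probe sets reached log2 5.

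Groups and pair numbers came from the sample titles. WT and KO values of a number summed to a constant within a cytokine, whereas crossed numbers gave sums with a median difference of 0.193, so the pair was a block in the comparisons of KO with WT (limma 3.58.1 in R 4.3.3, lmFit and eBayes, all 10 arrays, 3 residual degrees of freedom). No source used here says what paired arrays had in common. Comparisons of IL-15 with IL-2 used group means with the residual variance and degrees of freedom of that fit. SDs are over pair differences. Scripts were tested on simulated data.

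Named were all members, the other MAX network genes, up to 4 called genes per list in KO versus WT, the 3 genes most like Myc and each member called between KO and WT, and Runx3. Members and lists were chosen with earlier results of these data known. Alternatives were no block, median centring, quantile normalization, no filter, a filter at log2 7, the mean of probe sets, Xist as a covariate, the fold and unadjusted p of the study's threshold (1.5-fold and p under 0.05, here with the filter at log2 5 in place of its requirement of signal above background in 1 array or more) and leaving out each array. Capping values at log2 16 was added after the data were seen. In comparisons of KO with WT and in the interaction, leaving out either array of a pair gave the same fit. Counts of alternatives include both omissions. Promoter windows were on GRCm38.p6, around start sites that need not be where the RefSeq gene begins, and 7 of 8 members matched.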

Additional observations from a re-analysis of the deposited data

How the results depend on the processing

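Without the replicate block, which ignores the pairing, called genes rose to 3803 (KO versus WT in IL-2), 1321 (KO versus WT in IL-15), 1158 (interaction), 4512 (IL-15 versus IL-2 in WT) and 4326 (in KO), and called members were 5, 3, 1, 6 and 4. With pair differences removed before deposit, that fit counts each pair's residual more than once. Without a filter the counts were 842, 0, 0, 1333 and 1126, members 1, 0, 0, 2 and 1, and targets lower in KO 13. With an unadjusted p under 0.05 and 1.5-fold, 3391 genes and 4 members were called in IL-2 and 1269 and 3 in IL-15. In KO versus WT in IL-15, the mean of probe sets gave 44 genes and Xist as a covariate 25, with 0 members each. With the pair as a block, that covariate follows only Xist differences within pairs, so it is no adjustment for sex. A filter at log2 7 gave 6 genes in the interaction. Members called between cytokines in KO were 1 after centring and 4 after quantile normalization. Quantile normalization turned the split of called genes between cytokines in WT from 1508 higher and 925 lower to 1242 and 1448, and in KO from 1311 and 880 to 1280 and 1384, with all-gene medians of -0.05 and -0.21. The cause of these changes was not tested.

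Leaving out 1 array gave 537 to 1525 called genes for KO versus WT in IL-2, 0 to 95 in IL-15, 0 to 1 for the interaction, 387 to 2650 between cytokines in WT and 134 to 2385 in KO. Called members then ranged over 1 to 3, 0 to 1, 0 to 0, 1 to 5 and 0 to 2, and targets lower in IL-15 over 13 to 39 in WT and 1 to 33 in KO.

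Signs turned only for differences that were not called. Mlx in IL-15 gave 0.057 with Xist and 0.014 after quantile normalization. The Mnt interaction gave 0.38 with Xist, 0.0036 with the mean of probe sets and 0.015 after quantile normalization, and Mnt in IL-15 gave 0.0045 with Xist. Mxd3 between cytokines in WT gave 0.46 and Mxd4 in IL-15 -0.24 with the mean of probe sets. Mycn in IL-2 gave -0.093 with Xist and -0.080 after quantile normalization. Without single arrays, KO versus WT ranged from -0.195 to 0.16 for Mlx in IL-15, -0.19 to 0.26 for Mxd4 in IL-15, -0.16 to 0.26 for Mycn in IL-2 and -0.45 to 0.36 for Mnt in IL-2, the Mnt interaction from -0.58 to 0.23, and Mxd1 between cytokines in KO from -0.17 to 0.33. Capping at log2 16 changed no call of a member.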
